A study of Rattus norvegicus with 9 samples.

Results

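The fibroblast growth factor (FGF) receptors and ligands described here are 10 of the 18924 genes in the deposited table. Earlier results of these data were known when these genes and the gene lists below were chosen. The 10 genes were chosen by name as FGF receptors and ligands of skeletal tissue. They are the receptor genes Fgfr1, Fgfr2, Fgfr3, Fgfr4 and Fgfrl1 and the ligand genes Fgf1, Fgf2, Fgf7, Fgf10 and Fgf18. All 10 had a row, and all 10 passed the filter on low counts and were tested. RNA was sequenced from primary chondrocytes, which build and keep the matrix of cartilage, grown from SD rats and used at passage 1 or 2. Cells were kept for 24 h in rat plasma to which thrombin and an unidentified inhibitor had been added (RPTi, n = 3), in rat plasma with thrombin (RPT, n = 3), or in rat plasma alone (RP, n = 3). All 3 groups therefore shared the plasma, and RPTi and RPT shared the thrombin, the protease of blood clotting that also activates receptors on cells. The series asks how thrombin acts on chondrocytes. No group had the inhibitor without thrombin, so an undoing of thrombin and an effect of the inhibitor itself cannot be told apart. The labels give neither the name nor the target of the inhibitor, and no dose and no age of the rats. Whether replicate libraries were separate animals or cultures is not stated in the labels, so every p-value refers to the spread among these libraries, some of which may be technical.

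Library totals were 31914905 to 37125039 counts in RPTi, 31877265 to 37009972 in RPT and 33520888 to 43962783 in RP, and 16009 to 16452 genes had a count. The cells carried the genes that define chondrocytes: all 12 listed markers were detected, and they summed to 78949 to 86015 CPM (counts scaled to library size) in RPTi, 32011 to 34193 in RPT and 50765 to 52126 in RP. All 12 fell in RPT against RP, all 12 rose in RPTi against RPT, and 10 rose in RPTi against RP. Among all tested genes, 13.6% rose and 15.2% fell in RPT against RP. The shares were 20.4% and 21.1% in RPTi against RPT, and 11.9% and 12.3% in RPTi against RP. The 10 fibroblast markers summed to 16130 to 17729 CPM in RPTi, 9612 to 10471 in RPT and 15836 to 17101 in RP, and the collagen genes Col1a1 and Col3a1 made up most of that sum. Of the 10, 1 rose and 5 fell in RPT against RP, 3 rose and 3 fell in RPTi against RPT, and 0 rose and 4 fell in RPTi against RP. The leukocyte genes Ptprc, Adgre1, C1qa and C1qb, the endothelial genes Cdh5 and Tie1 and the epithelial genes Cdh1, Krt5 and Krt14 had 0 to 8 counts in each library, with a mean of at most 3 each. Other genes of these lists were detected and moved. The leukocyte list summed to 24.5 to 28.8 CPM in RPTi, 44.5 to 46.3 in RPT and 23.4 to 27.4 in RP, of which Cd14 made up most, and Cd14 and Cd68 rose in RPT against RP and fell in RPTi against RPT. Csf1r, the only other tested gene of that list, fell in RPT against RP (log2 fold change -0.94) and did not pass in RPTi against RPT. The endothelial list summed to 1.39 to 1.86 CPM in RPTi, 2.77 to 4.34 in RPT and 1.52 to 2.17 in RP, and Plvap rose and fell in the same comparisons. The epithelial list summed to 15.6 to 18.6 CPM in RPTi, 8.42 to 10.2 in RPT and 17.0 to 18.04 in RP, and Krt8, which made up most of it, fell in RPT against RP and rose in RPTi against RPT. Krt18 fell in RPTi against RPT (log2 fold change -1.87) and in RPTi against RP (-1.42). Epcam fell in RPTi against RP (-1.26). The list of muscle and fat markers summed to 28.8 to 33.3 CPM in RPTi, 29.5 to 33.8 in RPT and 22.0 to 25.1 in RP. Of its 7 tested genes, 1 rose and 2 fell in RPT against RP, and 2 rose and 2 fell in RPTi against RPT. In RPTi against RP, 3 of them rose and 3 fell. The 10 markers of hypertrophic chondrocytes and osteoblasts summed to 469 to 528 CPM in RPTi, 4665 to 6087 in RPT and 2150 to 2376 in RP. Spp1 made up most of each sum. Of 9 tested, 2 rose and 4 fell in RPT against RP, and 3 rose and 3 fell in each of the other 2 comparisons. Spp1 and Mmp13 rose in RPT against RP and fell in both others. Alpl, Ihh and Panx3 did the reverse. The part of such cells in the results below was not tested. In these bulk samples, fewer cells of a type and less RNA per cell cannot be told apart.

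FGFs are secreted proteins that bind receptor tyrosine kinases at the cell surface together with heparan sulfate, and bound receptors activate the RAS, MEK and ERK kinases, phospholipase C gamma, PI3 kinase and STAT proteins. In the growth plate, signalling through Fgfr3 restrains the proliferation of chondrocytes, and activating mutations of this receptor cause achondroplasia in humans. Fgf18 and Fgf9 are known from mouse as ligands that reach growth plate chondrocytes, while Fgf2 is stored on heparan sulfate in the cartilage matrix. Fgf7 and Fgf10 are made by mesenchymal cells and act mainly on a splice form of Fgfr2 found in epithelium. Counts per gene do not separate the splice forms of a receptor.

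Below, Fgfr2, Fgfr3, Fgfr4 and Fgfrl1 fell in RPT against RP and rose in RPTi against RPT, while Fgf7 and Fgf10 did the reverse. The sequences just upstream of 4 of these genes are shown. They are the 250 bases before the RefSeq start site on the build GRCr8, read 5′ to 3′ on the strand of the gene, with each GC box (GGGCGG, or CCGCCC on the other strand) in capitals. They lie at chr14:81227210-81227459 on the minus strand for Fgfr3, chr1:194280915-194281164 on the minus strand for Fgfr2, chr14:1166335-1166584 on the minus strand for Fgfrl1 and chr2:52533689-52533938 on the plus strand for Fgf10.
Fgfr3: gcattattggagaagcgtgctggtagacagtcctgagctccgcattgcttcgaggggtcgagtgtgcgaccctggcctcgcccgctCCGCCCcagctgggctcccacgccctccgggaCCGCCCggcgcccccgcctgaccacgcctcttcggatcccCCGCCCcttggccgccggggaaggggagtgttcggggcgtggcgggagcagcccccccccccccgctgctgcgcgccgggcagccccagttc
Fgfr2: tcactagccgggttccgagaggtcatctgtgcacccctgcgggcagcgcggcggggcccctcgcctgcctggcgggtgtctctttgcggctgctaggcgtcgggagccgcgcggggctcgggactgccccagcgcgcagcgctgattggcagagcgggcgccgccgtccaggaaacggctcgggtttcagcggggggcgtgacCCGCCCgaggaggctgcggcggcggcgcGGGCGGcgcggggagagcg
Fgfrl1: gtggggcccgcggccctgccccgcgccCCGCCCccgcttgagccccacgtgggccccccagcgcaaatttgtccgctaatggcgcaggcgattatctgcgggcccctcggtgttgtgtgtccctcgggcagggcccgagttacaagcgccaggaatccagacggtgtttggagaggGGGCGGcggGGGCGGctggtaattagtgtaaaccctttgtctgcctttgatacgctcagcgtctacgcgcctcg
Fgf10: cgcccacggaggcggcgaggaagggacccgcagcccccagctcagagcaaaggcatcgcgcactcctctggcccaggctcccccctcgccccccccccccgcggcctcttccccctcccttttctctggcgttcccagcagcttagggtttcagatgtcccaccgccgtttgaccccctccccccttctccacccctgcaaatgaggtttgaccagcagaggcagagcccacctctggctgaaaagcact

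In the RefSeq windows of 300 bases, which reach 250 bases before and 50 after the start site, Fgfr3 held 3 GC boxes, Fgfr2 held 2, Fgfrl1 held 3 and Fgf10 held 0. Of the other windows, Fgfr4 held 3, Fgf1 and Fgf18 held 1 each, and Fgf2 and Fgf7 held 0. A GC box was present in 33.1% of the 33469 rat windows, and it was searched for only after these sequences had been seen. The share of G and C in the window was 74.7% for Fgfr3, 77.7% for Fgfr2, 68.0% for Fgfrl1 and 64.0% for Fgf10. It was 63.3% for Fgfr4, 48.3% for Fgf1, 49.7% for Fgf2, 43.7% for Fgf7 and 81.3% for Fgf18. The median over all windows was 51.7%. Of the 10 genes, 9 had a window, and Fgfr1 is named only. None of the 9 windows held TGANTCA, the AP-1 motif (7.33% of all windows), or CCGGAAG, an ETS motif (8.75%), on either strand. The STAT motif TTCNNNGAA (8.87%), which reads the same on both strands, had 1 match in the windows of Fgf1 and Fgf2 and none in the other 7. These are matches of letters in a window and not sites of binding.

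Thrombin lowered the receptor genes Fgfr2, Fgfr3, Fgfr4 and Fgfrl1 and raised the ligand genes Fgf7 and Fgf10. With the inhibitor added all 6 moved the other way, but no group had the inhibitor without thrombin. The 10 genes were chosen with earlier results of these data known, so the counts that follow are a description. In RPT against RP, 2 of the 10 genes rose and 4 fell at an adjusted p below 0.05 (edgeR's quasi-likelihood test, Benjamini-Hochberg over 13856 genes), where 13.6% of all tested genes rose and 15.2% fell. In RPTi against RPT, 4 rose and 4 fell, against 20.4% and 21.1% of all tested genes. In RPTi against RP, 3 rose and 4 fell, against 11.9% and 12.3%; without RPTi replicate 1, 2 fell. A test over the 3 groups passed for 8 of the 10 genes, all but Fgf2 and Fgf18, and for 46.7% of all tested genes. The median log2 fold change of the 5 receptor genes was -0.73 in RPT against RP, 1.32 in RPTi against RPT and 0.60 in RPTi against RP, while the medians of the 5 ligand genes were 0.59, -1.03 and -0.48 and those over all tested genes lay between -0.01 and 0.00. The comparisons share libraries, RPT standing in the first and the second, so a member that was high or low in RPT moves in opposite directions in them.

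**Figure D1:**
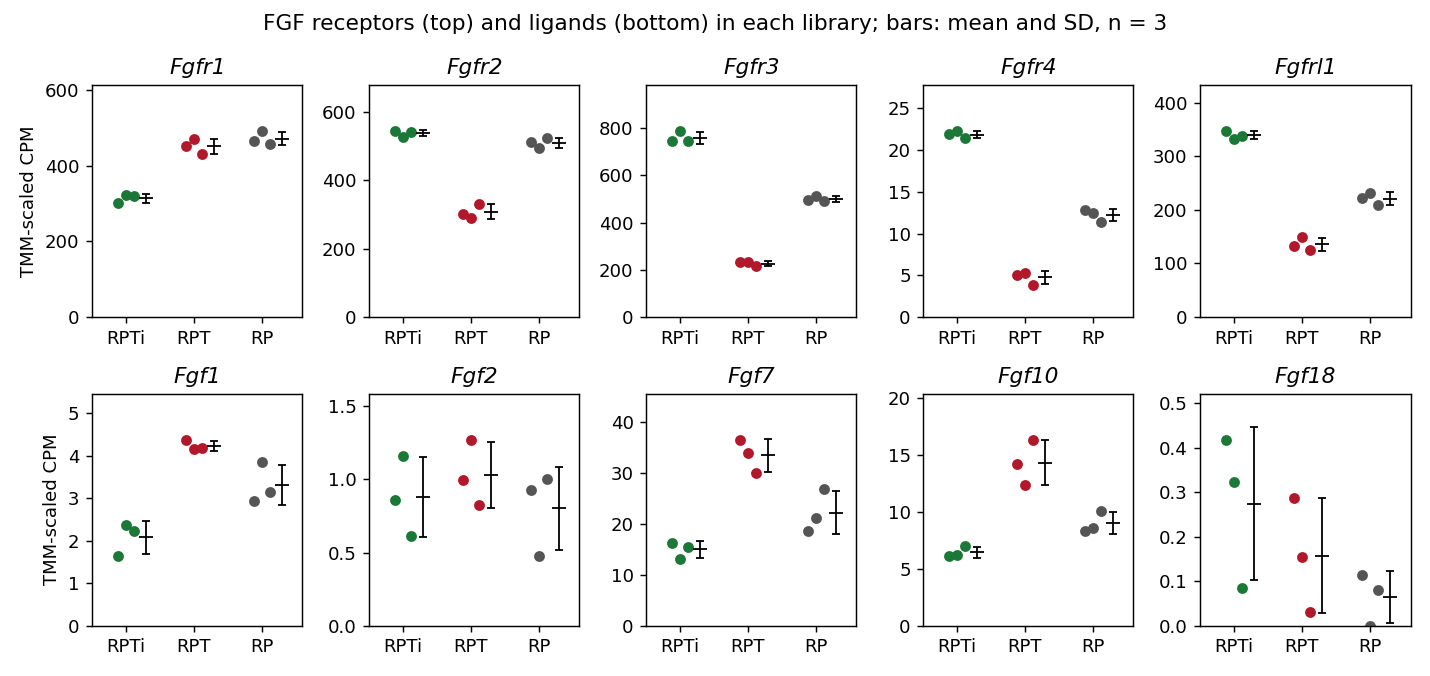
TMM-scaled CPM (linear axes from 0, one scale per gene) of the 5 receptor genes in the top row and the 5 ligand genes in the bottom row. Each dot is a library of RPTi, RPT or RP, and the bars give the mean and SD of 3 libraries. Fgfr3 sits at 745 to 787 CPM in RPTi, 216 to 231 in RPT and 489.8 to 515 in RP, while Fgf7 is highest in RPT.

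Fgfr3, the receptor that restrains growth plate chondrocytes, had the smallest adjusted p of the 10 genes in all 3 comparisons. It had 745, 787 and 746 CPM in the RPTi libraries, 231, 231 and 216 in the RPT libraries and 495, 515 and 489.8 in the RP libraries. No library of a group reached the range of another group, so the order RPTi, RP, RPT held in all 9. Fgfr3 fell in RPT against RP with a log2 fold change of -1.14 (SE 0.05, adjusted p = 3.71e-08 by edgeR). It rose 3.36-fold in RPTi against RPT (log2 fold change 1.75, SE 0.05, adjusted p = 4.85e-10) and 1.52-fold in RPTi against RP (0.60, SE 0.05, adjusted p = 5.19e-06). The level in RPTi was thus above that in plasma alone as well as above that in plasma with thrombin.

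Fgfr4, a receptor best known from liver and muscle, had the widest change of the 10 genes at a far lower level. Its libraries held 21.9, 22.3 and 21.5 CPM in RPTi, 5.02, 5.32 and 3.87 in RPT and 12.8, 12.4 and 11.4 in RP, from counts of 127 to 787 per library. The 3 groups did not overlap. Fgfr4 fell in RPT against RP by 1.36 on the log2 scale (SE 0.11, adjusted p = 2.26e-06 by edgeR), and rose 4.61-fold in RPTi against RPT (2.20, SE 0.11, adjusted p = 1.03e-08) and 1.79-fold in RPTi against RP (0.84, SE 0.10, adjusted p = 7.99e-05).

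Fgfrl1 encodes a receptor that binds FGFs but lacks the tyrosine kinase domain. It had 346, 332 and 338 CPM in RPTi, 133, 148 and 125 in RPT and 222, 232 and 208 in RP, again with no overlap between the groups and with RP between the other two. The log2 fold change was -0.70 in RPT against RP (SE 0.07, adjusted p = 9.24e-06 by edgeR), 1.32 in RPTi against RPT (SE 0.07, adjusted p = 1.47e-08) and 0.62 in RPTi against RP (SE 0.07, adjusted p = 3.43e-05).

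Fgfr2, known from mouse for roles in the perichondrium and in forming bone, had 543, 528 and 541 CPM in RPTi, 302, 289 and 332 in RPT and 512, 495 and 523 in RP. The RPT libraries were far below the others, and the lowest RPTi library was just above the highest RP library. Fgfr2 fell in RPT against RP (log2 fold change -0.73, SE 0.06, adjusted p = 1.99e-06 by edgeR) and rose in RPTi against RPT (0.80, SE 0.06, adjusted p = 2.88e-07). Between RPTi and RP its log2 fold change was 0.08 (SE 0.06, adjusted p = 0.378), which did not pass.

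Fgfr1, the receptor of mesenchyme and of hypertrophic chondrocytes, differed from the other 4. It had 301, 323 and 319 CPM in RPTi, 452, 471 and 431 in RPT and 466, 491 and 459 in RP. The RPT and RP libraries overlapped, and every RPTi library lay below both. The log2 fold change of Fgfr1 was -0.06 in RPT against RP (SE 0.06, adjusted p = 0.435 by edgeR), which did not pass, while it fell in RPTi against RPT (-0.52, SE 0.06, adjusted p = 9.66e-06) and in RPTi against RP (-0.59, SE 0.06, adjusted p = 1.03e-05). Fgfr1 was the 1 receptor gene of 5 that was lower with the inhibitor.

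**Figure D2:**
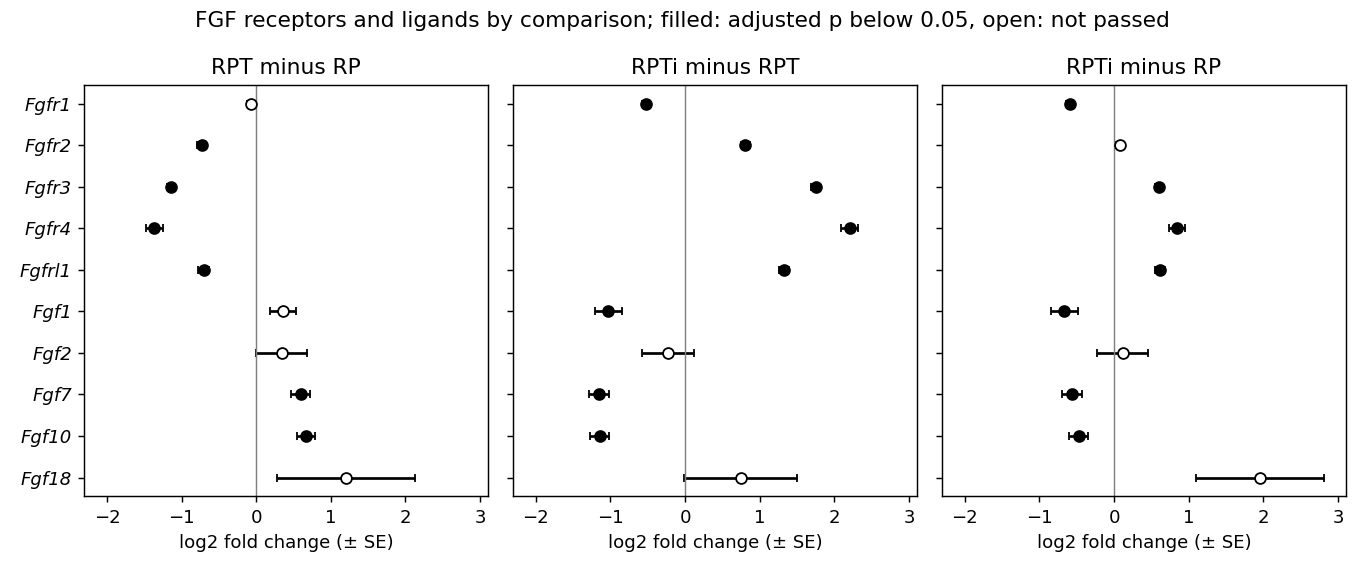
Log2 fold change (horizontal axis, positive meaning higher in the group named first) with its SE for each gene in 3 panels, 1 for each comparison. Filled points passed an adjusted p of 0.05 and open points did not; Fgfr2, Fgfr3, Fgfr4 and Fgfrl1 lie left of 0 in the first panel and right of 0 in the second, while Fgf7 and Fgf10 do the reverse.

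The make-up of receptor mRNA also differed between the groups. Levels of different genes can be set side by side only per length, so the deposited FPKM (counts divided by gene length and by library total) were summed over the 4 kinase receptors Fgfr1, Fgfr2, Fgfr3 and Fgfr4 in each library, and the share of each was taken. Fgfr3 made up 49.8%, 50.9% and 49.3% of the sum in the RPTi libraries, 24.6%, 24.3% and 23.3% in RPT and 35.8%, 36.3% and 35.5% in RP. Fgfr1 made up 21.3%, 22.0% and 22.3% in RPTi, 50.7%, 52.3% and 49.3% in RPT and 35.5%, 36.6% and 35.2% in RP. In neither gene did the groups overlap. A share depends on the levels of the other receptors as well, and the Fgfr1 level itself did not pass in RPT against RP.

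Fgfr3 was therefore the leading receptor transcript in RPTi and Fgfr1 in RPT, and in RP they were level: the ratio of Fgfr3 to Fgfr1 FPKM was 2.21 to 2.34 in RPTi, 0.465 to 0.484 in RPT and 0.991 to 1.01 in RP. The Fgfr3 share was 11.8 percentage points below RP in RPT (a difference of -11.8), 25.9 points higher in RPTi than in RPT and 14.2 points higher in RPTi than in RP. An exact two-sided permutation test of 3 libraries against 3 gave p = 0.1 for the Fgfr1, Fgfr3 and Fgfr4 shares in every comparison, the smallest p that the design allows, and 0.133 after adjustment over 12 tests. Fgfr2 held a mean share of 26.6% ± 0.889 in RPTi, 24.6% ± 2.13 in RPT and 27.5% ± 1.17 in RP (SD, n = 3 each), with exact permutation p = 0.2, 0.3 and 0.4 for RPT against RP, RPTi against RPT and RPTi against RP. Fgfr4 took 1.54% ± 0.025 in RPTi, 0.538% ± 0.0797 in RPT and 0.935% ± 0.0524 in RP. The summed level of the 4 receptors was 412 ± 7.73 FPKM in RPTi, 268 ± 5.16 in RPT and 392 ± 3.84 in RP.

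**Figure D3:**
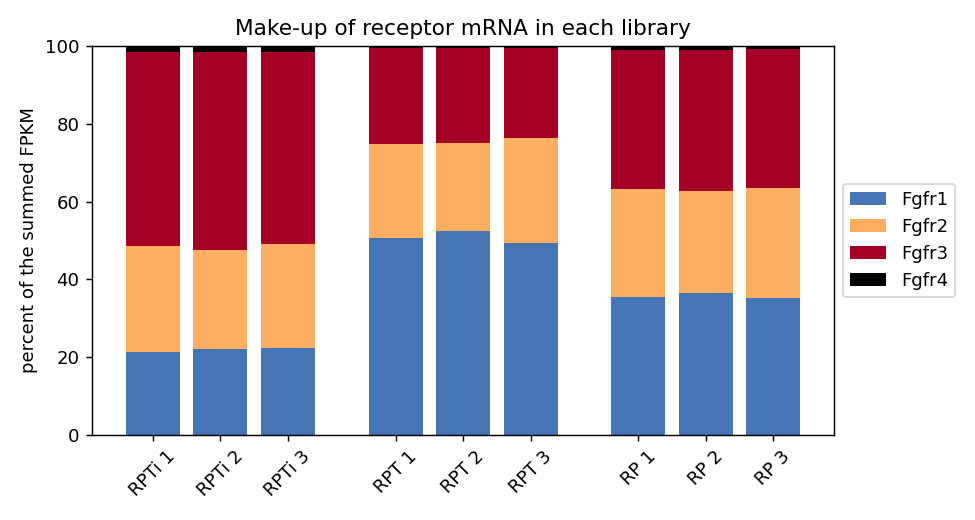
Share of each kinase receptor gene in the summed FPKM of Fgfr1, Fgfr2, Fgfr3 and Fgfr4 (vertical axis, percent), 1 stacked bar per library. Fgfr3 takes 49.3% to 50.9% of the bar in RPTi, 23.3% to 24.6% in RPT and 35.5% to 36.3% in RP. The Fgfr1 share moves the opposite way, though the Fgfr1 level itself did not pass in RPT against RP.

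The fall of the 4 receptor genes with thrombin went along with the fall of the chondrocyte markers given above. Col2a1, the main collagen of cartilage, had 41197 ± 1322 CPM in RPTi, 16198 ± 1148 in RPT and 26064 ± 1016 in RP (SD, n = 3 each), and its log2 fold changes were -0.69, 1.35 and 0.66 in RPT against RP, RPTi against RPT and RPTi against RP, close to those of Fgfrl1. Sox9, the transcription factor of chondrocytes, had 134 ± 10.6 CPM in RPTi, 90.0 ± 11.6 in RPT and 144 ± 10.1 in RP. The part of a change in cell identity or cell mix in the receptor results was not tested.

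The ligand Fgf7, a mesenchymal growth factor for epithelium, had 16.3, 13.1 and 15.5 CPM in RPTi, 36.4, 33.9 and 30.0 in RPT and 18.6, 21.1 and 26.8 in RP. All 3 RPT libraries lay above the other 6, and all 3 RPTi libraries lay below the RP libraries. Fgf7 rose 1.51-fold in RPT against RP (log2 fold change 0.59, SE 0.13, adjusted p = 0.00421 by edgeR). It fell in RPTi against RPT (-1.16, SE 0.13, adjusted p = 1.58e-05) and in RPTi against RP (-0.56, SE 0.13, adjusted p = 0.00829).

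Fgf10, which acts on the same receptor form as Fgf7, followed it at a lower level. Its libraries held 6.15, 6.20 and 7.01 CPM in RPTi, 14.2, 12.4 and 16.3 in RPT and 8.30, 8.58 and 10.1 in RP. The groups did not overlap. Fgf10 rose 1.59-fold in RPT against RP (0.67, SE 0.12, adjusted p = 0.00113 by edgeR) and fell in RPTi against RPT (-1.15, SE 0.12, adjusted p = 9.06e-06). In RPTi against RP it fell by 0.48 on the log2 scale (SE 0.12, adjusted p = 0.0142), a call lost without RP replicate 3 (adjusted p = 0.0607), RPTi replicate 1 (0.0596) or RPTi replicate 2 (0.0516) and adjusted p = 0.00257 to 0.0607 over all alternatives. The FPKM ratio of Fgf7 to Fgf10 was 13.0 to 16.2 in RPTi, 11.3 to 16.8 in RPT and 13.7 to 16.3 in RP, so the ranges of the groups overlapped.

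Fgf1, a ligand of all the kinase receptors that lacks a secretion signal, had 1.64, 2.36 and 2.23 CPM in RPTi, 4.37, 4.15 and 4.18 in RPT and 2.94, 3.84 and 3.14 in RP, from 59 to 167 counts per library. The RPT libraries were the highest and the RPTi libraries the lowest, with no overlap. The log2 fold change in RPT against RP was 0.36 (SE 0.17, adjusted p = 0.148 by edgeR), which did not pass. Fgf1 fell in RPTi against RPT (-1.03, SE 0.18, adjusted p = 0.000572) and in RPTi against RP (-0.67, SE 0.18, adjusted p = 0.0173). The second call was lost without RP replicate 2 (adjusted p = 0.0650) or without RPTi replicate 1 (0.0787), and its adjusted p was 0.00863 to 0.0787 over all alternatives.

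Fgf2, the matrix-bound ligand of cartilage, was low everywhere. It had 31, 36 and 22 counts in the RPTi libraries (0.863, 1.16 and 0.614 CPM), 38, 41 and 27 in RPT (0.994, 1.27 and 0.823 CPM) and 41, 16 and 38 in RP (0.927, 0.477 and 1.00 CPM). All 3 groups overlapped. The log2 fold changes were 0.34 in RPT against RP (SE 0.34, adjusted p = 0.496 by edgeR), -0.23 in RPTi against RPT (SE 0.34, adjusted p = 0.627) and 0.11 in RPTi against RP (SE 0.35, adjusted p = 0.844), and the sign of the last turned when RP replicate 2 (-0.14) or RPTi replicate 2 (-0.13) was left out.

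Fgf18, known from mouse as a ligand of Fgfr3 in the growth plate, was at the limit of detection. It had 15, 10 and 3 counts in RPTi, 11, 5 and 1 in RPT and 5, 0 and 3 in RP. The RP library with 0 counts allows a level of up to 0.0893 CPM, the value of 3 counts, a limit that covers counting error only. The log2 fold changes of Fgf18 were 1.21 in RPT against RP (SE 0.92, adjusted p = 0.367 by edgeR), 0.74 in RPTi against RPT (SE 0.76, adjusted p = 0.468) and 1.95 in RPTi against RP (SE 0.86, adjusted p = 0.118), so no difference was detectable at this depth.

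Several ligand genes overlap other genes in the GRCr8 annotation: Fgf1 overlaps Arhgap26, Fgf2 overlaps Nudt6, Fgf7 overlaps Fam227b and Fgf10 overlaps a long noncoding RNA gene. These are overlaps of whole gene spans, introns included, and overlap of exons was not checked. The library kit named in the labels does not mark the strand, and the setting used for counting is not given. Reads from any exon sequence shared by both genes of a pair therefore cannot be told apart. Nudt6 had 54 to 95 counts in RPTi, 53 to 80 in RPT and 72 to 99 in RP, more than Fgf2 in every library. Arhgap26, Nudt6 and Fam227b passed in none of the 3 comparisons.

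Per length, Fgfr1, Fgfr2 and Fgfr3 stood above every ligand in all 3 groups. The mean deposited FPKM in RPTi ran in the order Fgfr3 (206 ± 6.34), Fgfr2 (109 ± 1.89), Fgfr1 (90.1 ± 3.56), Fgfrl1 (75.0 ± 1.56), Fgf7 (21.0 ± 2.29), Fgfr4 (6.34 ± 0.0943) and Fgf10 (1.48 ± 0.117), followed by Fgf2, Fgf18 and Fgf1, whose libraries overlapped with their neighbour in the order. In RPT, Fgfr1 led with 136 ± 6.19 FPKM, and Fgfr2 (65.8 ± 4.61) and Fgfr3 (64.5 ± 2.99) overlapped. They were followed by Fgf7 (49.2 ± 5.22), Fgfrl1 (31.5 ± 2.72), Fgf10 (3.44 ± 0.473) and Fgfr4 (1.44 ± 0.237), then by Fgf1 and Fgf2, which overlapped, and by Fgf18. In RP, Fgfr3 (141 ± 2.82) and Fgfr1 (140.3 ± 4.23) overlapped at the top, followed by Fgfr2 (108 ± 3.76), Fgfrl1 (50.7 ± 2.33), Fgf7 (32.3 ± 6.36), Fgfr4 (3.67 ± 0.199), Fgf10 (2.13 ± 0.241), the overlapping Fgf1 and Fgf2, and Fgf18 (SD, n = 3 each). The level of Fgf7 thus stood above that of Fgfrl1 in RPT and below it in RPTi and in RP, and the level of Fgf10 stood above that of Fgfr4 in RPT alone. The gene lengths behind these FPKM were 693 bases for Fgf7 and 555 for Fgf18 against 4493 for Fgf1 and 4242 for Fgf10, so the order between genes depends on the gene models that the authors used.

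For the 4 members with the widest range of group means, the genes with the most similar pattern over the 9 libraries were found by the root mean square difference of log2 CPM, each gene centred on its own mean, among 9342 genes of at least 5 CPM. Fgfrl1 was followed most closely, by Col2a1 (a difference of 0.026), by Fndc1, an extracellular matrix protein gene (0.047), and by the collagen gene Col8a2 (0.067). The genes nearest to Fgfr3 were Shisa3 (0.057), Nkd1, an inhibitor of Wnt signalling (0.074), and Rassf4 (0.075). Those nearest to Fgfr4 were Alpl, the tissue-nonspecific alkaline phosphatase of mineralising cartilage and bone (0.094), Wscd2 (0.104) and Ppp1r1b (0.111). Alpl had 24.6 ± 1.36 CPM in RPTi, 5.52 ± 0.87 in RPT and 13.6 ± 0.788 in RP (SD, n = 3 each). Fgf7 had no neighbour as close: Tmem8a differed by 0.121, Sh3rf3 by 0.128 and Slfn4 by 0.150. These are descriptions over 9 libraries of 3 groups, and many genes share the same order of groups.

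**Figure D4:**
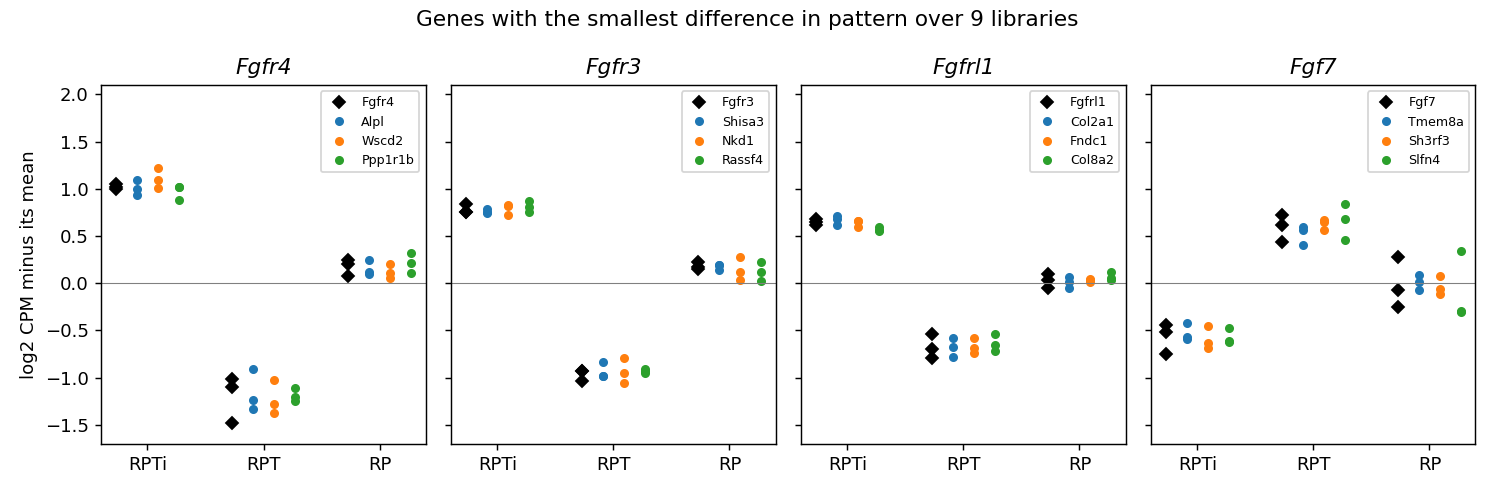
Log2 CPM minus the mean of the gene over 9 libraries (vertical axis) for Fgfr4, Fgfr3, Fgfrl1 and Fgf7 (black diamonds) and the 3 genes nearest to each in pattern (coloured dots), with the libraries of RPTi, RPT and RP from left to right. The 3 genes were chosen for likeness over these same libraries, so each set runs together by construction. Values are high in RPTi and low in RPT for the receptors and the reverse for Fgf7.

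Among the FGF ligand genes outside the 10, 11 of 18 listed had a row and 4 were abundant enough to test. Fgf9, a ligand of Fgfr3, had 0.318 ± 0.054 CPM in RPTi, 1.99 ± 0.444 in RPT and 0.349 ± 0.134 in RP (SD, n = 3 each), from 7 to 83 counts per library. The RPT libraries lay above the other 6. It rose 5.62-fold in RPT against RP (log2 fold change 2.49, SE 0.33, adjusted p = 0.000116 by edgeR) and fell in RPTi against RPT (-2.63, SE 0.34, adjusted p = 4.58e-05). Fgf21, a hormone-like FGF known from liver, had 2.93 ± 0.894 CPM in RPTi, 0.286 ± 0.0753 in RPT and 0.426 ± 0.0852 in RP. It rose 10.1-fold in RPTi against RPT (3.33, SE 0.33, adjusted p = 4.10e-06) and 6.79-fold in RPTi against RP (2.76, SE 0.31, adjusted p = 3.45e-05), while in RPT against RP it did not pass (-0.57, SE 0.37, adjusted p = 0.278). Fgf13, an FGF that stays inside the cell, rose in RPTi against RPT (0.79, SE 0.21, adjusted p = 0.00848) and did not pass in the other comparisons. The fourth, Fgf12, passed in none.

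Of the 9 tested genes for FGF binding proteins and protein co-receptors, 2 rose and 2 fell in RPT against RP, 2 rose and 1 fell in RPTi against RPT, and 1 rose and 1 fell in RPTi against RP, with median log2 fold changes of 0.06, 0.25 and 0.11. Over all tested genes, 13.6% rose and 15.2% fell in RPT against RP, 20.4% and 21.1% in RPTi against RPT, and 11.9% and 12.3% in RPTi against RP, so these counts lie near the background. With library totals alone or DESeq2 size factors, 1 fell in RPT against RP. Fgfbp1, which releases FGFs from the matrix, had 2.29 ± 0.0852 CPM in RPTi, 3.03 ± 0.552 in RPT and 1.15 ± 0.0738 in RP, and rose in RPT against RP (log2 fold change 1.39, adjusted p = 0.000195 by edgeR) and in RPTi against RP (0.99, adjusted p = 0.00327). Flrt2, a membrane protein of the FLRT family that binds FGF receptors, had 37.3 ± 1.97 CPM in RPTi, 66.8 ± 4.51 in RPT and 59.8 ± 1.20 in RP, and fell in RPTi against RPT (-0.84, adjusted p = 1.04e-06) and in RPTi against RP (-0.68, adjusted p = 2.03e-05). Flrt1 fell in RPT against RP (-1.15, adjusted p = 0.00562) and rose in RPTi against RPT (1.44, adjusted p = 0.000702), and the adhesion molecule gene L1cam rose in RPTi against RPT (1.15, adjusted p = 0.0111).

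Heparan sulfate, the sugar chain that FGFs need to bind their receptors, was represented by 22 tested genes. In RPT against RP, 5 rose and 12 fell, where 13.6% and 15.2% of all tested genes did. In RPTi against RPT, 12 rose and 4 fell, against 20.4% and 21.1%. In RPTi against RP, 7 rose and 3 fell, against 11.9% and 12.3%. Their median log2 fold changes were -0.21, 0.25 and 0.06. The carriers Gpc1 and Gpc3 moved as Fgfr3 did: Gpc1 had 943 ± 37.6 CPM in RPTi, 410.5 ± 42.8 in RPT and 545 ± 47.8 in RP, and Gpc3 had 58.0 ± 5.03, 20.9 ± 0.931 and 38.5 ± 2.13 CPM in the same groups (SD, n = 3 each). So did Sulf2, which removes sulfate groups from heparan sulfate outside the cell, with log2 fold changes of -0.74 in RPT against RP, 1.09 in RPTi against RPT and 0.35 in RPTi against RP (adjusted p = 9.64e-07, 9.88e-09 and 0.000482 by edgeR). The reverse direction was taken by Extl3, a glycosyltransferase that starts the chain (0.64, -1.15 and -0.51; adjusted p = 9.85e-06, 2.47e-08 and 0.000103 by edgeR). Hs3st1, a sulfotransferase of the chain, had 0.643 ± 0.193 CPM in RPTi, 3.57 ± 0.161 in RPT and 0.959 ± 0.159 in RP. It rose in RPT against RP (1.89, adjusted p = 7.19e-05 by edgeR) and fell in RPTi against RPT (-2.45, adjusted p = 5.45e-06). The carriers did not all move alike. Gpc4, Gpc6 and Sdc2 fell in RPT against RP and rose in RPTi against RPT. Sdc1 and Sdc4 rose in RPT against RP and fell in RPTi against RPT. Sdc3 rose in RPT against RP and in RPTi against RP. These further carriers are named after their values were seen.

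The list of adaptors and effectors inside the cell had 23 tested genes. In RPT against RP, 2 rose and 3 fell, where 13.6% and 15.2% of all tested genes did. In RPTi against RPT, 7 rose and 5 fell, against 20.4% and 21.1%. In RPTi against RP, 2 rose and 6 fell, against 11.9% and 12.3%. The medians were -0.01, -0.02 and -0.03, and with library totals alone 4 rose in RPT against RP. Gab1, a docking protein below FGF receptors, fell in RPT against RP (log2 fold change -0.62, adjusted p = 4.04e-05 by edgeR) and rose in RPTi against RPT (0.79, adjusted p = 2.27e-06). The adaptor gene Shc1 rose in RPT against RP (0.21, adjusted p = 0.0221) and fell in RPTi against RPT (-0.50, adjusted p = 2.39e-05), as did Cbl, which marks activated receptors for removal (0.29, adjusted p = 0.0176, and -0.66, adjusted p = 3.42e-05).

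The last list holds genes that FGF receptors, like other receptors acting through ERK, induce as targets and feedback inhibitors. Like the members and the other lists, it was chosen with earlier results of these data known, so its counts are a description. Most of its genes rose with thrombin and fell with the inhibitor. Of 18 tested, 15 rose and 0 fell in RPT against RP, 0 rose and 17 fell in RPTi against RPT, and 1 rose and 16 fell in RPTi against RP, with median log2 fold changes of 0.81, -2.28 and -1.25. Over all tested genes, 13.6% rose and 15.2% fell in RPT against RP, 20.4% and 21.1% in RPTi against RPT, and 11.9% and 12.3% in RPTi against RP. Dusp6, a phosphatase that inactivates ERK, had 4.27 ± 0.665 CPM in RPTi, 30.3 ± 2.50 in RPT and 15.4 ± 1.22 in RP (SD, n = 3 each). It rose 1.97-fold in RPT against RP (adjusted p = 1.99e-05 by edgeR) and fell in RPTi against RPT (log2 fold change -2.83, adjusted p = 2.60e-09) and in RPTi against RP (-1.85, adjusted p = 3.20e-07). Fosl1, an AP-1 transcription factor gene, rose 3.35-fold in RPT against RP (1.74, adjusted p = 1.42e-07) and fell in RPTi against RPT (-3.59, adjusted p = 4.90e-10). Dusp5 and Ccnd1 also rose in RPT against RP (1.37 and 0.63) and fell in RPTi against RPT (-2.64 and -1.60). The ETS factor gene Etv1 was an exception with thrombin: its log2 fold change was -0.11 in RPT against RP (adjusted p = 0.409) and it fell in RPTi against RPT (-2.59, adjusted p = 1.77e-09). The 1 gene that rose in RPTi against RP was Ier3 (0.32, adjusted p = 0.0220), named here after its value was seen.

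**Figure D5:**
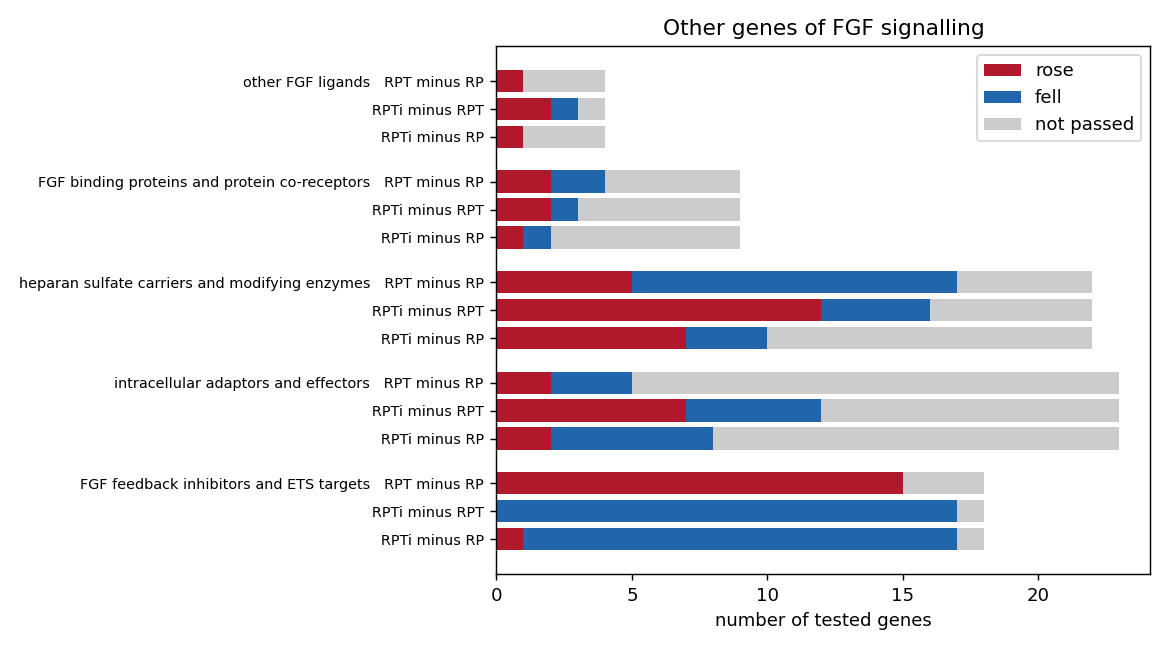
Number of tested genes (horizontal axis) that rose, fell or did not pass an adjusted p of 0.05 in each of 5 lists of FGF pathway genes, with 1 bar for each comparison. The list of feedback inhibitors and ETS targets has 15 of 18 genes risen in RPT minus RP and 17 of 18 fallen in RPTi minus RPT, while the intracellular adaptors are split between the directions.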

How the data were processed

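Poly-A selected RNA from 9 libraries was sequenced as paired-end reads, per the labels' protocols. Per the submitters' processing notes, the tools included HISAT2, HTSeq 0.11.2 and DESeq2 1.26.0 and the build was Rnor_6.0, with no roles stated. The HISAT2 version, the annotation release and the strand setting were not given in those sources. The authors deposited whole-number counts per Ensembl gene. The deposited FPKM values equal those counts divided by a gene length and by the library total (largest relative difference 2.23e-13). In the work reported here, genes were filtered with filterByExpr (minimum count 10, minimum total 15), which kept 13856 genes and removed 0.0259% of counts. Libraries were scaled by TMM, 1 quasi-likelihood model was fitted to all 9 libraries (glmQLFit and glmQLFTest, edgeR 4.0.16, R 4.3.3), and Benjamini-Hochberg adjustment ran over all tested genes at 0.05. "Rose" and "fell" mean past that threshold. CPM are TMM-scaled, and SE is the log2 fold change divided by the square root of F. The fit was tested on simulated data.

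All 10 members are named, with up to 5 called genes of each pathway list by the smallest p over the 3 groups, every called FGF ligand, and 3 genes of like pattern (log2 CPM with a prior count of 2) for the 4 members of widest range. Some genes that this rule names are not reported here. The members and lists were chosen with earlier results of these data known. Of 157 listed genes, 14 had no matching row and were not analysed here. Promoter windows and gene overlaps came from RefSeq tables of build GRCr8, another build than the counts, and were matched by symbol. Replicate numbers were not used as pairs in the main fit, and no 2 libraries held identical counts. The alternatives were DESeq2 size factors, library totals alone, no filter, at least 1 CPM in 3 libraries, the DESeq2 1.42.0 Wald test, limma 3.58.1 on log2(FPKM + 1), only the 2 groups compared, a replicate block, and leaving out each library. Each library counts as 1 sample, and limits from counts cover counting error only.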

Additional observations from a re-analysis of the deposited data

How the results depend on the processing

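Of 496 log2 fold changes of the 10 genes recomputed under the alternatives, 489 kept their direction and their side of the threshold, 5 no longer passed and 2 changed sign. The 5 were Fgf1 in RPTi against RP without RP replicate 2 (-0.56, adjusted p = 0.0650 by edgeR) or RPTi replicate 1 (-0.53, 0.0787), and Fgf10 in the same comparison without RP replicate 3 (-0.39, 0.0607), RPTi replicate 1 (-0.44, 0.0596) or RPTi replicate 2 (-0.45, 0.0516). The number of members that fell in RPTi against RP was 4, and 2 to 4 when 1 library was left out, the 2 coming without RPTi replicate 1. The change of sign was in Fgf2, RPTi against RP, with -0.14 to 0.31 over the libraries left out, against 0.11. The cause was not tested. The other 5 counts of members were the same under every alternative run, except that limma on FPKM, which tested 7 of the 10, had 3 fallen in RPTi against RPT. Shares computed from CPM in place of FPKM gave Fgfr3 differences of -10.6 points in RPT against RP, 23.7 in RPTi against RPT and 13.0 in RPTi against RP; leaving out 1 library gave -12.0 to -11.4, 25.5 to 26.3 and 13.7 to 14.5. Of 60 counts of the pathway lists, 3 moved: with library totals alone 4 adaptor genes rose in RPT against RP, and with library totals or DESeq2 size factors 1 co-receptor gene fell there. No scaling moved the median of all genes by more than 0.07 on the log2 scale (-0.07, library totals, RPTi against RPT). The labels do not state whether replicate numbers pair the libraries. Correlations of same-numbered libraries across groups ran from -0.11 to 0.12, with 2 of 9 pairs over 0.1. Those of libraries with other numbers ran from -0.16 to 0.14. The main fit has no block because the rule set for pairing, every pair over 0.1, was not met. With so few libraries this cannot exclude pairing. A fit with the replicate block called the same number of members, 2 risen and 4 fallen in RPT against RP, 4 and 4 in RPTi against RPT and 3 and 4 in RPTi against RP. Over all genes, that fit called 2514 risen and 2560 fallen in RPT against RP, where the main fit called 1886 and 2113. Depth limits Fgf18 and Fgf2, whose libraries held 0 to 15 and 16 to 41 counts.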
